A study of Mus musculus with 6 samples.

Results

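Of the 9 neural crest specifier transcription factors examined here, *Msx1*, *Sox9* and *Snai1* were detected in all 6 libraries of sorted aortic cells, whether the cells came from the secondary heart field or from the neural crest. *Sox9* and *Snai2* were higher in every secondary heart field library than in every neural crest library, and low levels of *Tfap2b* were listed only in neural crest libraries. *Pax3* and *Foxd3* were listed at 0 throughout. Of the 4 factors high enough to be tested across all genes, *Sox9* and *Snai2* among them, none passed, and *Tfap2b* fell below the filter on low values. The factors were chosen by name, as *Tfap2a*, *Tfap2b*, *Sox9*, *Snai1*, *Snai2*, *Pax3*, *Foxd3*, *Msx1* and *Msx2*, and all 9 were found among the 24421 rows of the expression matrix.

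Neural crest cells arise at the border of the neural plate, leave it by an epithelial-to-mesenchymal transition and migrate. The cardiac neural crest (CNC) reaches the outflow tract and gives smooth muscle and other mesenchymal cells of the ascending aorta. BMP, Wnt and FGF signals at the border first induce factors such as *Msx1*, *Msx2*, *Pax3* and the AP-2 protein *Tfap2a*. Specifier factors such as *Foxd3*, *Snai1*, *Snai2* and *Sox9* then set the crest state, and several of them are used again in other mesenchyme, *Sox9* in cartilage and heart valves and *Msx1* and *Msx2* downstream of BMP.

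The libraries came from mice backcrossed to 129S6/SvEv and killed at 8 weeks of age. All of them carried the *CAG-Sun1/sfGFP* tracer allele, a nuclear GFP that Cre switches on for good. In 3 libraries the Cre was *Mef2cSHF*, which marks descendants of the secondary heart field (SHF), and in 3 it was *Wnt1-Cre2*, which marks descendants of the CNC. The column labels mark every library WT and name the SHF libraries AHF. Living GFP+ cells of the aortic root and ascending aorta were sorted, so that a library holds every traced cell type and not smooth muscle alone. Whether a library came from 1 mouse or several is not given in the sources used here, and p-values measure the spread between these libraries.

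Values are TPM, the RSEM measure of transcript abundance, which is a level per transcript length and relative to the total of the library. TPM keeps no record of depth, so no detection limit can be given and a value of 0 is called listed at 0. Between 9255 and 11858 genes were above 0 in a library. The summed level of 10 fibroblast markers was 29748.8 to 32627.2 TPM in SHF libraries and 41110.9 to 55266.9 TPM in CNC libraries, against 1496.4 to 3145.4 and 1378.7 to 2075.0 TPM for 12 smooth muscle markers. Of 8 leukocyte markers 4 were listed at 0 in all 6, *Ptprc* among them, and their sum was 0.0 to 26.9 TPM in SHF and 8.0 to 84.7 TPM in CNC libraries, highest in CNC replicate 2 with *Lyz2* at 58.85 TPM. Of 6 melanocyte markers 4 were listed at 0 in all 6, *Dct* among them, while *Tyr* was at 8.68 to 24.01 TPM, and the sum was 22.3 to 35.1 TPM in SHF and 10.3 to 23.1 TPM in CNC libraries. Cardiomyocyte markers summed to 87.4 to 117.3 TPM in SHF and 0.0 to 37.9 TPM in CNC libraries. *Xist* was above 0 in SHF replicates 2 and 3, and the Y-linked *Ddx3y* in SHF replicate 1 and the 3 CNC libraries, so that sex and lineage overlap in part. In bulk samples, fewer cells of a type and less RNA per cell cannot be told apart.

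*Msx1*, a homeobox repressor induced by BMP, had the highest level of the 9. In order of replicate number, its TPM was 130.77, 322.64 and 59.57 in the SHF libraries and 147.75, 133.41 and 120.27 in the CNC libraries, an order kept for the genes that follow. The CNC libraries lay close together, inside the range of the SHF libraries, of which replicate 2 was the highest and replicate 3 the lowest of all 6. By level, *Msx1* ranked between 505 and 2467 in a library.

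*Sox9*, an HMG-box factor that activates cartilage matrix genes, was next. SHF libraries held 93.63, 132.65 and 59.27 TPM of *Sox9*, and CNC libraries 52.59, 43.81 and 31.95 TPM. The lineages did not overlap, but the lowest SHF value was only 1.13 times the highest CNC value. *Msx1* was above *Sox9* in 6 of 6 libraries, by 1.12 ± 0.72 on the log2(TPM + 1) scale (SD, n = 6), although in SHF replicate 3 the levels were within 1 TPM of each other.

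*Snai1*, a zinc finger repressor of epithelial genes, was at 55.92, 22.44 and 14.35 TPM in the SHF libraries and at 18.69, 43.83 and 35.1 TPM in the CNC libraries. SHF replicates held both its highest and its lowest value. *Sox9* was above *Snai1* in the 3 SHF libraries but in only 1 of the 3 CNC libraries, so the order of these neighbours did not hold in every library.

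*Snai2*, the Slug repressor, was at 12.65, 47.26 and 30.81 TPM in the SHF libraries. In the CNC libraries it was listed at 0 in replicate 1, with 4.44 TPM in replicate 2 and 4.21 TPM in replicate 3. Its lineages did not overlap, and the lowest SHF value was 2.85 times the highest CNC value. A value of 0 was common at this level. Of 4205 genes whose mean TPM was within 2-fold of that of *Snai2*, 49.1% were listed at 0 in some library, against 11.8% at the level of *Sox9* and 2.07% at that of *Msx1*.

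The other 5 factors were low or listed at 0. *Tfap2a*, an AP-2 activator of the crest program, reached 12.01 TPM in CNC replicate 1. Elsewhere it stayed under 1 TPM, with 0.36 in CNC replicate 2, 0.05 in CNC replicate 3 and 0.33 in SHF replicate 2, and it was listed at 0 in the remaining SHF libraries. Its paralogue *Tfap2b* had 0.72, 0.25 and 3.9 TPM in the CNC libraries and was listed at 0 in the 3 SHF libraries. *Msx2* was at 0.1 TPM in SHF replicate 1 and listed at 0 in the other 5 libraries. The paired-box factor *Pax3* and the forkhead factor *Foxd3* were listed at 0 in all 6. The AP-2 genes were therefore the only members with a higher mean in CNC libraries apart from *Snai1*, and each owed most of that mean to a single library. At the level of *Tfap2b*, 93.9% of genes were listed at 0 in some library, and 88.2% at the level of *Tfap2a*.

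**Figure D1:**
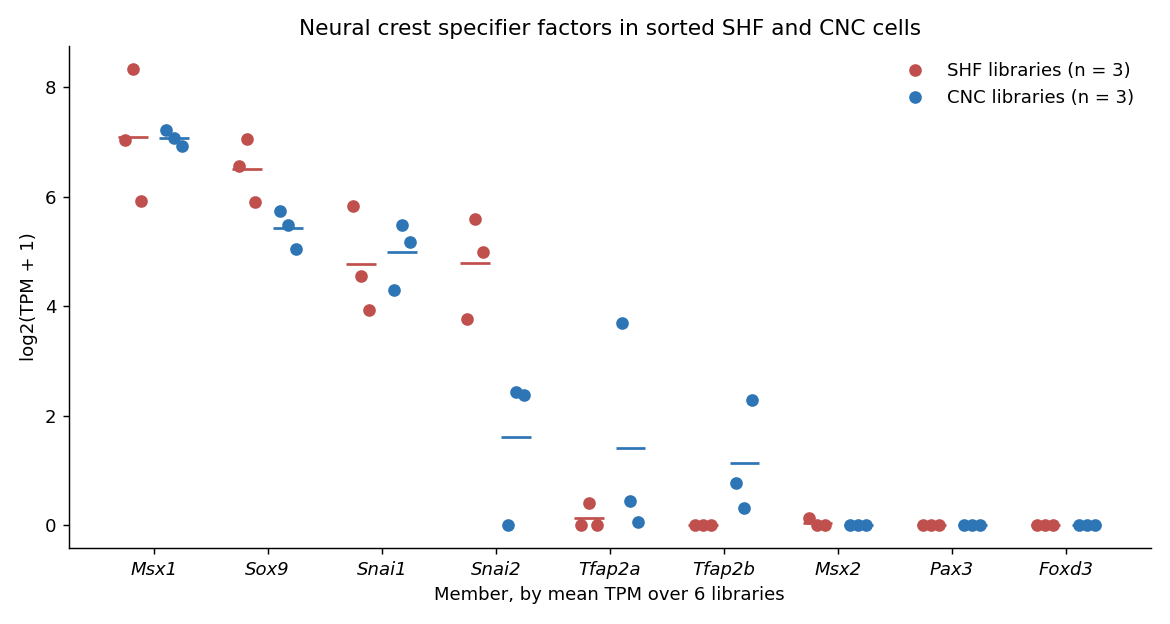
Level of each factor as log2(TPM + 1) (vertical axis) by gene, ordered by mean TPM (horizontal axis), with SHF libraries in red and CNC libraries in blue, 3 points each, and a line at the mean of the 3. *Sox9* and *Snai2* points separate by lineage with SHF higher, *Msx1* and *Snai1* points overlap, and the 5 genes on the right lie near 0 apart from single CNC libraries of *Tfap2a* and *Tfap2b*.

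In GENCODE M21 on GRCm38, the assembly called mm10, all 9 are protein-coding. *Msx1* is on chromosome 5 from 37820485 to 37824583, *Sox9* on chromosome 11 from 112782224 to 112787760, *Snai1* on chromosome 2 from 167538195 to 167542814, and *Snai2* on chromosome 16 from 14705852 to 14709385. *Tfap2a* and *Msx2* share chromosome 13, from 40715302 to 40738376 and from 53466884 to 53473074. *Tfap2b* and *Pax3* share chromosome 1, from 19208914 to 19238576 and from 78101267 to 78197134, and *Foxd3* is on chromosome 4 from 99656299 to 99658622. For *Msx1*, *Sox9* and *Snai1*, 0 of the 50-base words of their transcripts occur in a transcript of another gene, and for *Snai2* 0.963% do. For *Tfap2a* the share is 10.2%, and its exons overlap exons of 3 antisense genes. The library protocol does not mark strand, so that reads of *Tfap2a* and of these antisense genes cannot be told apart.

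Upstream sequence is shown for *Msx1* and *Snai1*, detected in every library, and for *Foxd3*, listed at 0 in all 6. Each is the 250 bases before a RefSeq start on GRCm38.p6, 5' to 3' on the gene's strand. *Snai1* is chr2:167537945-167538194 on the plus strand, *Msx1* is chr5:37824586-37824835 on the minus strand, and *Foxd3* is chr4:99656049-99656298 on the plus strand. Capitals mark CACCTG, the E-box that Snail proteins bind, and CCAAT, each searched on both strands.
Snai1: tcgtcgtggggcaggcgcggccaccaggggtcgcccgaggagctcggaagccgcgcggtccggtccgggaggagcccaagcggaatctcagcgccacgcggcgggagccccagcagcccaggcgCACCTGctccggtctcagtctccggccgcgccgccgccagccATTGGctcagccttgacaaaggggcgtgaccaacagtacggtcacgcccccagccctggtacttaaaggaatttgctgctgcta
Msx1: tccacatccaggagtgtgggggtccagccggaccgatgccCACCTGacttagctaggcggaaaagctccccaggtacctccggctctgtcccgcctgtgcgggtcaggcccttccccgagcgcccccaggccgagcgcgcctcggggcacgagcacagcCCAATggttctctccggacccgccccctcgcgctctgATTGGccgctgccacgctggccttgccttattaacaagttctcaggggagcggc
Foxd3: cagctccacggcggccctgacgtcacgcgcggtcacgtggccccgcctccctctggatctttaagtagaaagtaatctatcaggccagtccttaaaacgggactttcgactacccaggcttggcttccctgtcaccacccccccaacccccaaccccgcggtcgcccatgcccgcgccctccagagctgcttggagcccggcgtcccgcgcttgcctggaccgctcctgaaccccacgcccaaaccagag

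The *Snai1* and *Msx1* windows hold 1 CACCTG each, at 126 and 210 bases before the start, and the *Foxd3* window holds 0. Of 32851 windows of the same length, 17.2% hold this motif. CCAAT occurs once in the *Snai1* window, at 84 bases before the start, and in 2 places in the *Msx1* window, at 91 and 54 bases, and 33.8% of all windows hold it. The AP-2 motif GCCNNNGGC was found in the *Snai1* window alone among the 3, and in 13.7% of all windows. The 3 windows hold 27 (*Snai1*), 20 (*Msx1*) and 21 (*Foxd3*) CpG dinucleotides, against a median of 6 over all windows. A motif match describes these letters and does not show binding.

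Whether a factor differed between lineages was tested with limma on log2(TPM + 1), SHF minus CNC, over the 10185 genes that reached 1 TPM in 3 or more libraries. Of the 9 members, 4 passed this filter on low values, *Msx1*, *Sox9*, *Snai1* and *Snai2*. With Benjamini-Hochberg adjustment, 0 of the 4 members had an adjusted p under 0.05, and neither did any other gene (0.0%). At an unadjusted p under 0.05 there was 1 member, *Snai2*, with SHF higher, as were 2.69% of all genes tested, and 597 genes were below that value in either direction. *Snai2* was no longer among them without SHF replicate 2 or without CNC replicate 1, where 0 members were.

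*Snai2* had the largest difference of the 4, at 3.18 on the log2 scale (SE 1.27, 95% confidence interval 0.37 to 5.98) and an adjusted p of 0.802 by limma. Adding a pseudocount shrinks the folds of low genes, and with *Snai2* listed at 0 in CNC replicate 1 the size ran from 2.08 with a pseudocount of 5 to 4.41 with 0.1. *Sox9* differed by 1.09 (SE 0.54, interval -0.09 to 2.27), with an adjusted p of 0.874 by limma, and its mean was 95.2 ± 36.7 TPM (SD, n = 3) in SHF and 42.8 ± 10.4 TPM (SD, n = 3) in CNC libraries. SHF was higher for both in each of the 6 fits that left out 1 library. Since their lineages did not overlap, it could not have been otherwise.

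*Msx1* differed by 0.03 (SE 0.56, interval -1.20 to 1.26) and *Snai1* by -0.21 (SE 0.79, interval -1.95 to 1.53), with adjusted p-values of 0.998 and 0.974 by limma. These intervals include differences of more than 2-fold in either direction, so the data do not show that the lineages were alike. The direction of either one rested on single libraries. The *Msx1* difference was -0.59 without SHF replicate 2 and 0.62 without SHF replicate 3, and the *Snai1* difference was -0.74 without SHF replicate 1 and 0.20 without SHF replicate 3.

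**Figure D2:**
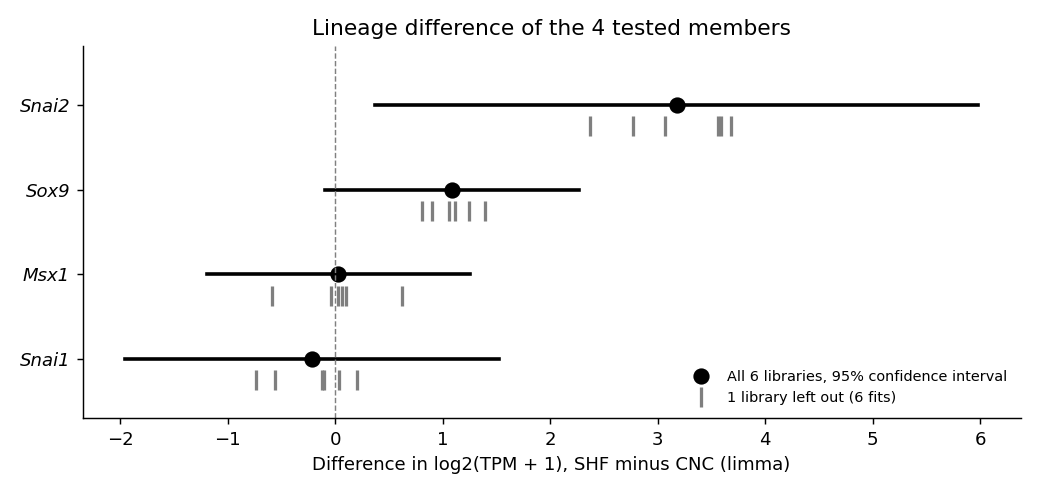
Difference in log2(TPM + 1), SHF minus CNC (horizontal axis), for the 4 tested members (vertical axis), as a black point with its 95% confidence interval from limma, and grey ticks for the 6 fits that each left out 1 library. The ticks of *Snai2* and *Sox9* all lie above 0, as they must where the lineages do not overlap. Those of *Msx1* and *Snai1* lie on both sides of 0.

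For each of these genes an exact two-sided permutation test over the 6 libraries cannot give a p below 0.1, which is the p it gave for *Sox9*, *Snai2* and *Tfap2b*. Of the 4 tested members, 2 had lineages that did not overlap, both with SHF higher, as had 6.11% of all tested genes in that direction. No tested member lay wholly higher in CNC libraries, where 5.68% of tested genes did. *Tfap2b* did so among the genes left out for low values, and of the 14179 genes above 0 in some library 4.37% had every CNC value above every SHF value. A transcript was called exclusive when every library of a lineage exceeded 5 TPM and all libraries of the other were at 0. Of the 9 members 0 qualified, and 0.24% of those genes did.

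Other measures moved with the same libraries. The summed level of 10 endothelial markers was 99.5 to 622.0 TPM in SHF libraries and 24.3 to 73.6 TPM in CNC libraries, with *Cdh5* listed at 0 in all 3 of the latter and *Pecam1* detected in each library. Its part in the *Sox9* and *Snai2* values was not tested. Over SHF replicates 1, 2 and 3 the sum was 99.5, 622.0 and 520.4 TPM, in the same order as *Snai2* but not as *Sox9*, which was lowest in replicate 3, and each sum was above every CNC sum. SHF replicate 1 is also the only SHF library with Y-linked transcripts. Among the 4 libraries that have them, *Sox9* and *Snai2* were higher in SHF replicate 1 than in each CNC library, as were 23.8% of genes. For both this follows from the lack of overlap over all libraries, and the part of sex in their values was not tested.

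The Snail paralogues were balanced differently in the libraries. *Snai2* made up 18.4%, 67.8% and 68.2% of the summed *Snai1* and *Snai2* TPM in the SHF libraries, against 0%, 9.20% and 10.7% in the CNC libraries. *Snai1* was the higher of the pair in the 3 CNC libraries and in SHF replicate 1, and *Snai2* in SHF replicates 2 and 3. The log2 ratio of *Snai1* to *Snai2*, with 1 TPM added to each, was -0.01 ± 1.79 (SD, n = 3) in SHF libraries. The CNC libraries gave 4.3, 3.04 and 2.79. The lineage difference was -3.39, and from -4.63 to -2.26 with other pseudocounts. The lineages did not overlap in this ratio, and the exact two-sided permutation p was 0.1, the smallest that 3 libraries against 3 allow. The summed level of the pair was 68.57, 69.7 and 45.16 TPM in SHF libraries and 18.69, 48.27 and 39.31 TPM in CNC libraries, which overlapped.

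**Figure D3:**
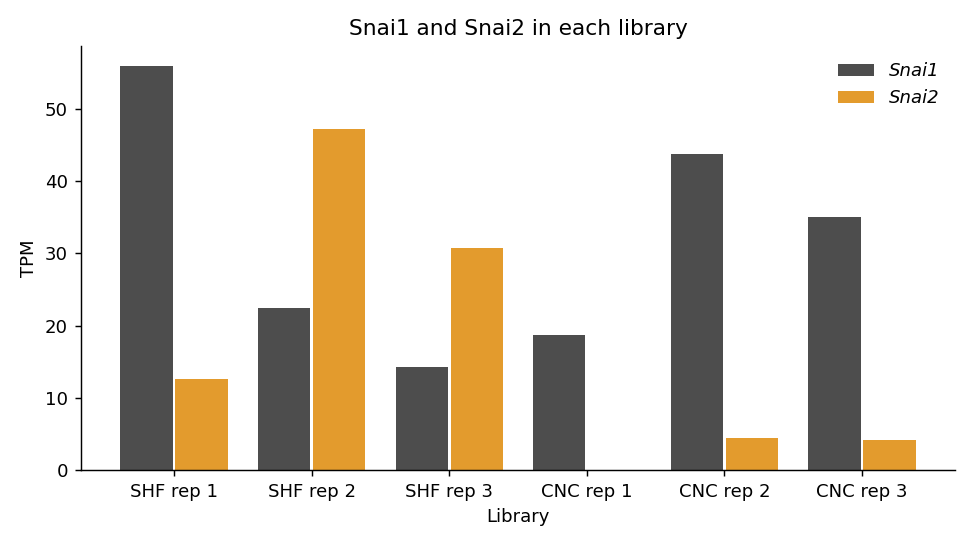
TPM (vertical axis) of *Snai1* in grey and *Snai2* in orange in each of the 6 libraries (horizontal axis), with 1 bar per gene and library and no error bar. *Snai2* is the taller bar only in SHF replicates 2 and 3, and it has no bar in CNC replicate 1, where it was listed at 0.

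The balance within the other families was one-sided or could not be read. *Msx1* was above *Msx2* in all 6 libraries, and with *Msx2* listed at 0 in 5 of them the ratio carries little beyond the *Msx1* level. For *Tfap2a* and *Tfap2b* the ratio ran from -2.22 in CNC replicate 3 to 2.92 in CNC replicate 1. Within CNC libraries, then, *Tfap2a* was the higher AP-2 gene in replicates 1 and 2 and *Tfap2b* in replicate 3.

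Genes with the most similar pattern over the 6 libraries were sought by Pearson's r of log2(TPM + 1), as a description without a test. With only 6 points, which share their libraries, many genes scored high. For *Sox9* they were *Rrn3* (r = 0.986), *Lamc1*, a laminin chain (0.985), and *Glyr1* (0.984), and 73 of 10184 genes had an r of at least 0.9. For *Snai2* they were the ribosomal protein gene *Rps27a* (0.992), *Gnal* (0.988) and *Trp53inp1* (0.987), with 194 genes at 0.9 or above. *Msx1* was closest to *Zbtb17* (0.993), *Abhd12* (0.992) and *Cc2d2a* (0.990), and 103 genes reached 0.9. *Snai1* was closest to *Ubxn8* (0.986), *Hira* (0.974) and *Kat8* (0.970), and 116 genes reached 0.9. *Tfap2a*, whose pattern is a peak in CNC replicate 1, was closest to *Pgd* (0.991), *Gm16845* (0.986) and *Srpr* (0.982), with 25 genes at 0.9 or above. No member was among the 3 closest genes of another.

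Close relatives of the members were mostly listed at 0. Of 13 genes from the AP-2, SoxE, Snail, Pax, FoxD and Msx families, 11 were listed at 0 in all 6 libraries, including *Tfap2c*, *Snai3*, *Pax7* and *Foxd4*. *Sox8*, the one relative that was tested, was at 11.08, 0 and 0.2 TPM in the SHF libraries and at 5.24, 9.11 and 4.31 TPM in the CNC libraries, with a limma adjusted p of 0.895. *Sox10*, which marks migrating crest and glia and is named here after its values were seen, was listed at 0 in the SHF libraries and in CNC replicate 1 and had 2.81 TPM in CNC replicate 2 and 4.81 TPM in CNC replicate 3. *Tfap2b* was detected in these 2 libraries as well as in CNC replicate 1. The summed level of 8 Schwann cell markers was 25.6 to 66.3 TPM in CNC and 1.5 to 16.0 TPM in SHF libraries, and its part in the AP-2 values was not tested.

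Among 18 other factors of the crest network, 9 were tested and 0 passed the threshold in either direction. Of these 9, 8 had a positive fitted log2 difference (SHF higher), with a median of 0.45 against 0.02 over all tested genes, where 5215 of 10185 were positive. The sign on the log scale can differ from that of the mean TPM, as it did for *Hand2* here, named after its values were seen, with a log2 difference of 0.01 and means of 6.87 TPM in SHF and 7.22 TPM in CNC libraries. The most abundant was *Id3*, an inhibitor of bHLH factors and a BMP target, at 1270.51, 961.83 and 1127.95 TPM in SHF and 674.21, 788.07 and 1011.12 TPM in CNC libraries (log2 difference 0.45, SE 0.26, limma adjusted p = 0.874). *Id2* was at 193.34, 155.33 and 96.98 TPM in SHF and at 91.06, 67.41 and 82.78 TPM in CNC libraries, without overlap (adjusted p = 0.874). *Myc*, which keeps crest progenitors dividing, was at 225.94, 46.1 and 109.78 TPM in SHF and 34.84, 47.47 and 96.12 TPM in CNC libraries. The exception in direction was *Dlx5*, a homeobox factor of the neural plate border, named after its values were seen. Its TPM was 13.13, 4.97 and 14.33 in the CNC libraries, and it was listed at 0 in the 3 SHF libraries, with a limma adjusted p of 0.625. *Dlx5* met the filter on low values only through the CNC libraries, which fixed its direction. Border factors *Zic1*, *Zic2*, *Zic5* and *Gbx2*, and *Dlx6*, were listed at 0 in all 6.

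Of 10 ligands and receptors that induce the crest, 4 were tested, 0 passed, and their median difference was 0.54. That median turned on single libraries, at 0.01 without SHF replicate 1, 0.16 without SHF replicate 3, 1.36 without SHF replicate 2 and 1.34 without CNC replicate 3. *Bmp4* was at 66.17, 18.8 and 50.35 TPM in SHF and at 5.58, 38.72 and 131.18 TPM in CNC libraries, which overlapped, and *Wnt3a*, *Wnt6* and *Fgf8* were listed at 0 throughout. *Bmp2* was at 34.57, 0 and 38.66 TPM in SHF and 5.2, 7.98 and 4.38 TPM in CNC libraries, and *Bmp7* at 0, 0 and 20.04 against 9.78, 0 and 7.05 TPM. Both overlapped between lineages. Of 15 partners and regulators of the members 10 were tested and 0 passed. The log2 difference was negative (CNC higher on the log scale) for 8 of the 10, against 4970 of 10185 tested genes. It was only -0.02 for *Hdac1*. The median was -0.48, with -0.93 and -0.23 at pseudocounts of 0.1 and 5. It ran from -0.41 to -0.12 with 1 library left out and was lowest in size without CNC replicate 1. The most abundant were *Gsk3b*, a kinase that marks Snai1 protein for degradation, the histone deacetylase *Hdac1*, and *Limd1*, a LIM protein of the Ajuba family that binds Snail repressors. *Gsk3b* was at 49.93, 117.42 and 60.87 TPM in SHF and 103.23, 85.64 and 68.97 TPM in CNC libraries, and *Hdac1* at 52.41, 57.37 and 42.16 against 22.17, 96.79 and 61.47 TPM. *Limd1* was at 24.48, 71.38 and 43.84 TPM in SHF and 31.48, 9.93 and 27.42 TPM in CNC libraries. Of 12 receptors and cadherins of migrating crest 7 were tested and 0 passed, with a median of 0.49, or 0.88 without SHF replicate 1. That median was 1.04 over genes that reached 5 TPM and 0.22 with library weights. The semaphorin and VEGF receptor *Nrp1* was the most abundant of them, at 94.66, 347.96 and 131.25 TPM in SHF and 100.38, 121.14 and 126.95 TPM in CNC libraries. The cadherin *Cdh11* was at 37.57, 28.44 and 70.11 TPM in SHF and 88.87, 38.64 and 44.74 TPM in CNC libraries, and the endothelin receptor *Ednra* at 34.92, 38.76 and 39.61 against 11.41, 66.3 and 55.13 TPM. These 3 genes overlapped between lineages. SHF replicate 2 held the highest value of *Nrp1*, as it did of *Msx1*, *Sox9* and *Snai2*.

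Of 13 cartilage genes known as targets of *Sox9*, 12 were matched in the matrix, 4 were tested and 0 passed, with 2 log2 differences in each direction and a median of 0.13. This median over 4 genes has no stable direction. It was 1.09 with a pseudocount of 0.1, -0.30 with 5 and -1.79 over genes that reached 5 TPM. Leaving out SHF replicate 1, 2 or 3 gave -1.12, -1.31 or -1.15. *Comp*, cartilage oligomeric matrix protein, was by far the most abundant, at 308.02, 432.8 and 319.13 TPM in SHF and 696.17, 1000.42 and 763.64 TPM in CNC libraries (log2 difference -1.21, SE 0.29, limma adjusted p = 0.475). *Comp* was thus higher in every CNC library, where *Sox9* was lower. Fibroblasts also make *Comp*, and the fibroblast marker sum was higher in CNC libraries as well. Its part in the *Comp* values was not tested. The matrilins *Matn3* and *Matn4* were the next most abundant. *Matn3* was listed at 0 in the SHF libraries and was at 45.11, 0 and 30.39 TPM in the CNC libraries. *Matn4* was at 14.04, 0 and 4.21 TPM in SHF and 12.42, 31.47 and 23.42 TPM in CNC libraries (limma adjusted p = 0.874), with overlap. *Hapln1*, the hyaluronan link protein, named after its values were seen, was at 3.43, 23.48 and 14.13 TPM in SHF and 0, 0 and 0.83 TPM in CNC libraries (limma adjusted p = 0.692), and met the filter only through the SHF libraries. *Col2a1*, the main cartilage collagen and likewise named after its values were seen, was at 0.08 TPM in SHF replicate 2 and listed at 0 in the other libraries. *Col9a1*, *Col9a3*, *Col11a1*, *Acan* and *Col9a2* were also named after their values were seen and were too low to be tested. Of these, *Col9a2* was above 0 in CNC libraries alone, as was *Matn3*, and the others in SHF libraries alone.

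Of 14 epithelial genes that Snail proteins are known to repress, 8 were listed at 0 in all 6 libraries, including *Cdh1*, *Epcam* and *Ocln*, and 1 was tested. This was *Cldn3*, a tight junction claudin, at 44.33, 9.11 and 7.92 TPM in CNC libraries and listed at 0 in SHF libraries (limma adjusted p = 0.608). It met the filter on low values only through the CNC libraries, which fixed its direction. The keratin *Krt8* was above 0 in SHF replicate 3 and CNC replicate 1 alone, at 21.61 and 15.79 TPM, and *Krt18* in CNC replicate 2 alone, at 15.94 TPM. The epithelial genes were at 0.8 to 21.6 TPM in sum in SHF libraries and at 15.5 to 60.1 TPM in CNC libraries.

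**Figure D4:**
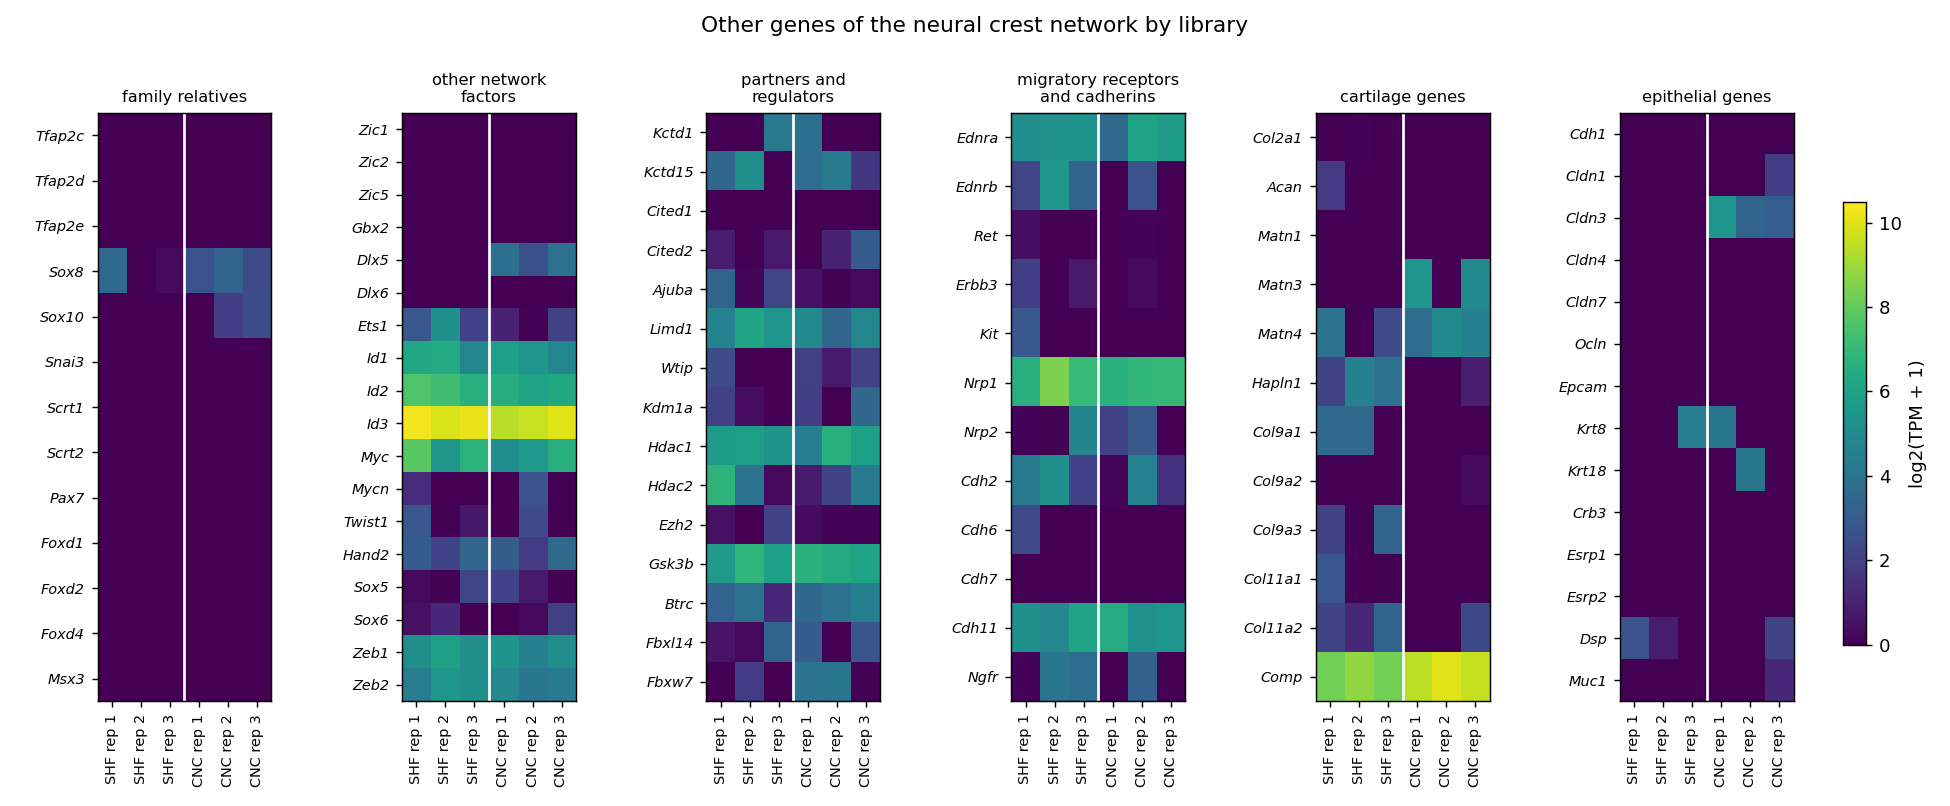
log2(TPM + 1) (colour scale) of other crest network genes (rows, in 6 lists) in the 3 SHF and 3 CNC libraries (columns, parted by a white line). Most family relatives and epithelial genes are at 0 in every column, *Dlx5* and *Cldn3* are above 0 in the CNC columns alone, and *Id3* and *Comp* are the brightest rows.

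Transcripts that respond to tissue dissociation were abundant in all libraries. The sum of 12 such genes was highest in SHF replicate 1, at 15254.9 TPM, the library with the highest *Snai1*, and was 6544.2 to 12305.9 TPM in the other libraries. SHF replicate 3, with the lowest *Snai1*, had the next highest sum, 12305.9 TPM. The part of the dissociation response in the *Snai1* values was not tested.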

How the data were processed

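The authors amplified RNA of sorted GFP+ cells with SmartSeq2, prepared Nextera XT libraries, and deposited TPM, 1 column per library. The submitters' processing notes name RSEM 1.2.25, bowtie2 and mm10. The gene annotation they used is not given in the sources used here. Each column was matched to its library by the library code in the labels, 3 SHF and 3 CNC. TPM sums to 1000000 per library, so depth is unknown. SmartSeq2 has no molecular identifiers.

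Levels were compared across genes with limma 3.58.1 in R 4.3.3 (lmFit, eBayes with a trend) on log2(TPM + 1), over genes that reached 1 TPM in 3 or more libraries, with Benjamini-Hochberg adjustment. The fit was tested on simulated data. Single genes and ratios were tested with exact permutation tests in SciPy 1.17.1. Gene lists are described by counts and medians. Of the crest network list, 2 genes are not reported here. The members and lists were chosen with earlier results of these data known. By rule, the genes named were the 9 members, with others taken from the 3 most abundant genes of each list, genes listed at 0 in all libraries, and the 3 genes most similar to each member above 0 in at least 4 libraries, apart from those said to be chosen later. *Cdh5* is named as a marker, after its values were seen. Upstream sequences came from RefSeq tables of GRCm38.p6, in which 6 of the 9 members were matched. Alternatives were pseudocounts of 0.1 and 5, no filter or one at 5 TPM, median-of-ratios or quantile scaling, a constant prior variance in eBayes, library weights, a replicate block, exclusive transcripts called at 1 or 10 TPM, and leaving out each library. Python 3.11.15, pandas 2.3.3 and matplotlib 3.10.9 were used for tables and plots.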

Additional observations from a re-analysis of the deposited data

How the results depend on the processing

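The number of members past the threshold was 0 under every alternative run, and none was exclusive to a lineage at 1, 5 or 10 TPM, with the other lineage under 1 TPM, or with any library left out. Over all genes the count higher in CNC was 1 with a pseudocount of 5 (*Gm13305*), 1 in the fit on the libraries with Y-linked transcripts (*Rps27rt*, where SHF is 1 library, assumed to vary like the CNC libraries that supply all of the spread), and 0 in the other fits, both genes being named after their values were seen. *Sox9* and *Snai2* differed by 0.81 to 1.39 and by 2.08 to 4.41 over all 16 alternatives, with SHF higher. Their limma adjusted p-values were no lower than 0.688 and 0.551. Without rescaling of the libraries this direction could not change, because the lineages do not overlap. With median-of-ratios and quantile scaling *Sox9* differed by 1.01 and 1.03, and *Snai2* by 3.08 and 3.33. *Msx1* changed direction with median-of-ratios rescaling (-0.05) and library weights (-0.10), and ran from -0.59 to 0.62 across fits with 1 library left out. *Snai1* ran from -0.74 to 0.20 across those fits. Depth is unknown, so no value of 0 has a limit. Chosen after seeing the data, the 4 libraries with Y-linked transcripts alone gave 6 members without overlap in either direction, since SHF is then a single library. SHF replicate 1 was above every CNC library for 23.8% of genes tested over these libraries, and the share in the other direction was not computed. The differences there were 0.84 for *Snai1* and -0.03 for *Msx1*, while the median of all genes was 0.21. The cause of the changes in direction was not tested.

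Replicate numbers are shared between lineages but do not pair the libraries. The correlations of deviations from the lineage means were -0.011, -0.004 and -0.011 for numbers 1, 2 and 3, and 0 of the 6 libraries correlated best with its own number. With a replicate block, 0 genes passed the threshold. The member differences were as without it, as they must be with 1 library of each lineage per number.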
